A study of Mus musculus with 6 samples.

Results

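Insulin-like growth factor 1 (IGF1), the receptors and substrate that pass on its signal and the proteins that bind it were followed in mouse embryonic fibroblasts, primary cells taken from mouse embryos at E14.5. The 10 genes are Igf1, Igf1r, Insr, Irs1, Igfbp2, Igfbp3, Igfbp4, Igfbp5, Igfbp6 and Igfbp7, each found by its gene symbol as 1 of 23748 rows of the microarray table. The mutant cells carry the FOG-2 Rb- allele: a knock-in at Zfpm2, the gene of FOG-2, a protein that binds GATA factors, whose product no longer binds the retinoblastoma protein pRb according to the study's title (3 samples, with Ki-27 in their titles). They were set against wild type cells (3 samples, Wt-18 in their titles). Both were harvested while growing, in DMEM/F12 medium with 20% donor bovine serum, before any differentiation, and total RNA was hybridised to Affymetrix whole-transcript arrays. Samples of a genotype are labelled experiments 1 to 3, with no word on whether they stem from different embryos or dishes. All p-values therefore measure a spread between samples that may be technical, and genotype cannot be told apart from whatever the numbers 18 and 27 mark. The 10 genes were chosen with the difference between the genotypes already known, so their own values are given as a description, without p-values.

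IGF1 is a secreted growth factor that acts through the tyrosine kinase receptor IGF1R and, more weakly, through the insulin receptor. Activated receptors phosphorylate substrates such as IRS1, which switch on the PI3K and MAP kinase pathways and promote growth, survival and, in precursor cells, fat cell formation. IGF binding proteins hold the ligand outside the cell: they can keep it from the receptor, lengthen its life or concentrate it in the matrix, and proteases that cut them set it free. Serum in the medium brings IGFs and binding proteins of its own, which RNA measurements do not record.

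The stretches upstream of the annotated starts of 4 of the genes are shown because they belong to Igf1, Igfbp2 and Igfbp5, whose levels differed most between the genotypes, and to Igfbp6, the other gene with a GATA match. Each is the 250 bases before the start, 5′ to 3′ on the gene's strand, from RefSeq on GRCm38.p6. They lie at chr10:87860861-87861110 on the plus strand for Igf1, chr15:102143936-102144185 on the plus strand for Igfbp6, chr1:72824230-72824479 on the plus strand for Igfbp2 (the first of its 2 annotated starts) and chr1:72874866-72875115 on the minus strand for Igfbp5. Capitals mark matches to the GATA words, on either strand.
Igf1: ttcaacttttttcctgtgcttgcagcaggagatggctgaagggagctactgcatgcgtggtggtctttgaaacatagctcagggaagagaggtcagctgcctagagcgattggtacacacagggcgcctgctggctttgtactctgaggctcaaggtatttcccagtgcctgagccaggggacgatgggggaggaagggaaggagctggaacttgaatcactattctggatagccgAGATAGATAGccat
Igfbp6: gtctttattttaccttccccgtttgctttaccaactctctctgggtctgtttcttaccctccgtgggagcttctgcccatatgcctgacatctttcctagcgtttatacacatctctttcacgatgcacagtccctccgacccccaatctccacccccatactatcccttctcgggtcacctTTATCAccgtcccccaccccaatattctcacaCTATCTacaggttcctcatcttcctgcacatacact
Igfbp2: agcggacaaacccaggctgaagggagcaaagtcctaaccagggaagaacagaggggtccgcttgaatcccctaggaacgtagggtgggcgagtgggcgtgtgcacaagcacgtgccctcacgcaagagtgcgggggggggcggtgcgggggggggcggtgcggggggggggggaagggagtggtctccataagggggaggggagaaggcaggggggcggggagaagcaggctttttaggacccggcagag
Igfbp5: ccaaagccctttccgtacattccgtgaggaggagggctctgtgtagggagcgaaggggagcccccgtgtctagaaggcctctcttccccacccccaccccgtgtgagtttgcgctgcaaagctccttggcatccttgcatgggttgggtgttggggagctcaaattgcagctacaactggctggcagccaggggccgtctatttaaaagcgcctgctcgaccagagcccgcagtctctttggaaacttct

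The words searched on both strands were, for GATA factors, the letters GATA preceded by A or T and followed by A or G; these factors are the proteins that FOG-2 binds. For E2F factors, the partners of pRb, they were TTTCCCGC, TTTCGCGC, TTTGCCGC and also TTTGGCGC, and for FoxO factors, which insulin and IGF signalling restrain, GTAAACA. The set of upstream sequences used here held such a stretch for 9 of the 10 genes, 10 windows in all, with none for Insr. A GATA word occurred in 2 of the 10 windows, those of Igf1 and Igfbp6, against 26.5% of all 32851 windows of this length. In Igf1 the word AGATAG occurred at 14 and again at 10 bases before the start, and these matches overlap. In Igfbp6 the matches are on the opposite strand, starting 68 and 36 bases before the start. No E2F word and no FoxO word was in any of the 10 windows, against 1.86% and 3.17% of all windows. These are matches of letters in short windows and say nothing about where a factor binds. All windows of these genes but that of Igfbp6 (49.6% G and C) were above the median of all windows (52.4%). Igf1r was highest at 77.6%. The shares of windows with a word were not adjusted for this.

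Of the 10 genes, Igf1 was raised most in FOG-2 Rb- fibroblasts. It measured 9.10, 9.08 and 9.05 on the log2 scale in FOG-2 Rb- replicates 1 to 3, against 7.43, 7.38 and 7.48 in wild type replicates 1 to 3. All 3 FOG-2 Rb- samples lay above all wild type samples, with a gap of 1.57 log2 units between the nearest samples of the genotypes. The means were 9.08 ± 0.02 in FOG-2 Rb- and 7.43 ± 0.05 in wild type (SD, n = 3 each). The log2 fold change was 1.65 (SE 0.05), or 3.13-fold. In RNA of whole cultures, a change in the number of cells that express a gene and a change in RNA per cell cannot be told apart, here or for any gene below.

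The receptor and substrate genes differed far less. Igf1r, which encodes the main IGF1 receptor, measured 9.77, 9.81 and 9.84 in FOG-2 Rb- cells, against 9.69, 9.68 and 9.59 in wild type cells. Its log2 fold change was 0.15 (SE 0.05), and the genotypes were separated by 0.08 at the nearest samples. Insr, the insulin receptor gene, measured 8.28, 8.34 and 8.35 in FOG-2 Rb- cells and 8.45, 8.49 and 8.44 in wild type cells. The FOG-2 Rb- samples were all lower, with a log2 fold change of -0.14 (SE 0.05). Irs1, which encodes the substrate that both receptors phosphorylate, had 8.12, 8.01 and 8.06 in FOG-2 Rb- cells and 8.16, 8.23 and 8.31 in wild type cells. Its log2 fold change was -0.16 (SE 0.06), and the nearest samples of the genotypes were only 0.03 apart. Igf1r, Insr and Irs1 did not pass the threshold of the whole-table test described further on.

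Among the binding proteins, Igfbp2 and Igfbp5 were lower in FOG-2 Rb- cells and the other 4 were higher. Igfbp2, which encodes a binding protein with an integrin-binding motif, measured 6.01, 6.03 and 6.25 in FOG-2 Rb- cells, against 7.76, 7.64 and 7.82 in wild type cells. The groups were 1.39 log2 units apart at their nearest samples. Its log2 fold change was -1.64 (SE 0.08), 3.13-fold lower, the same size as the rise of Igf1 and opposite in direction.

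Igfbp5, whose product binds the extracellular matrix, measured 4.55, 4.63 and 4.68 in FOG-2 Rb- cells and 5.59, 5.70 and 5.73 in wild type cells. It was lower in all 3 FOG-2 Rb- samples, with a log2 fold change of -1.06 (SE 0.06), or 2.08-fold lower. With a mean of 4.62 in FOG-2 Rb- cells it came close to 4.51, the value below which 30% of all rows lie, and a fold change at such low values may be understated.

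Igfbp3 encodes the main carrier of IGFs in serum. It measured 7.68, 7.89 and 7.71 in FOG-2 Rb- cells and 6.92, 6.98 and 7.14 in wild type cells, a log2 fold change of 0.75 (SE 0.08) or 1.68-fold. Igfbp4, which encodes a binding protein known chiefly as an inhibitor of IGF action, measured 8.18, 8.02 and 8.17 in FOG-2 Rb- cells and 7.60, 7.46 and 7.31 in wild type cells. Its log2 fold change was 0.66 (SE 0.09), and of the 10 genes it had the widest spread among wild type samples (SD 0.15). For both genes every FOG-2 Rb- sample was above every wild type sample.

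Igfbp6, whose product prefers IGF2 to IGF1, measured 10.79, 10.86 and 10.82 in FOG-2 Rb- cells and 10.21, 10.17 and 10.27 in wild type cells, a log2 fold change of 0.60 (SE 0.05). Igfbp7 encodes a related secreted protein that binds IGFs weakly. It measured 12.45, 12.40 and 12.43 in FOG-2 Rb- cells and 11.96, 11.96 and 12.09 in wild type cells. Its log2 fold change was 0.42 (SE 0.05), or 1.34-fold, with a gap of 0.31 between the nearest samples. The 4 binding proteins that were higher differed by 1.34-fold to 1.68-fold, less than the 2 that were lower.

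**Figure D1:**
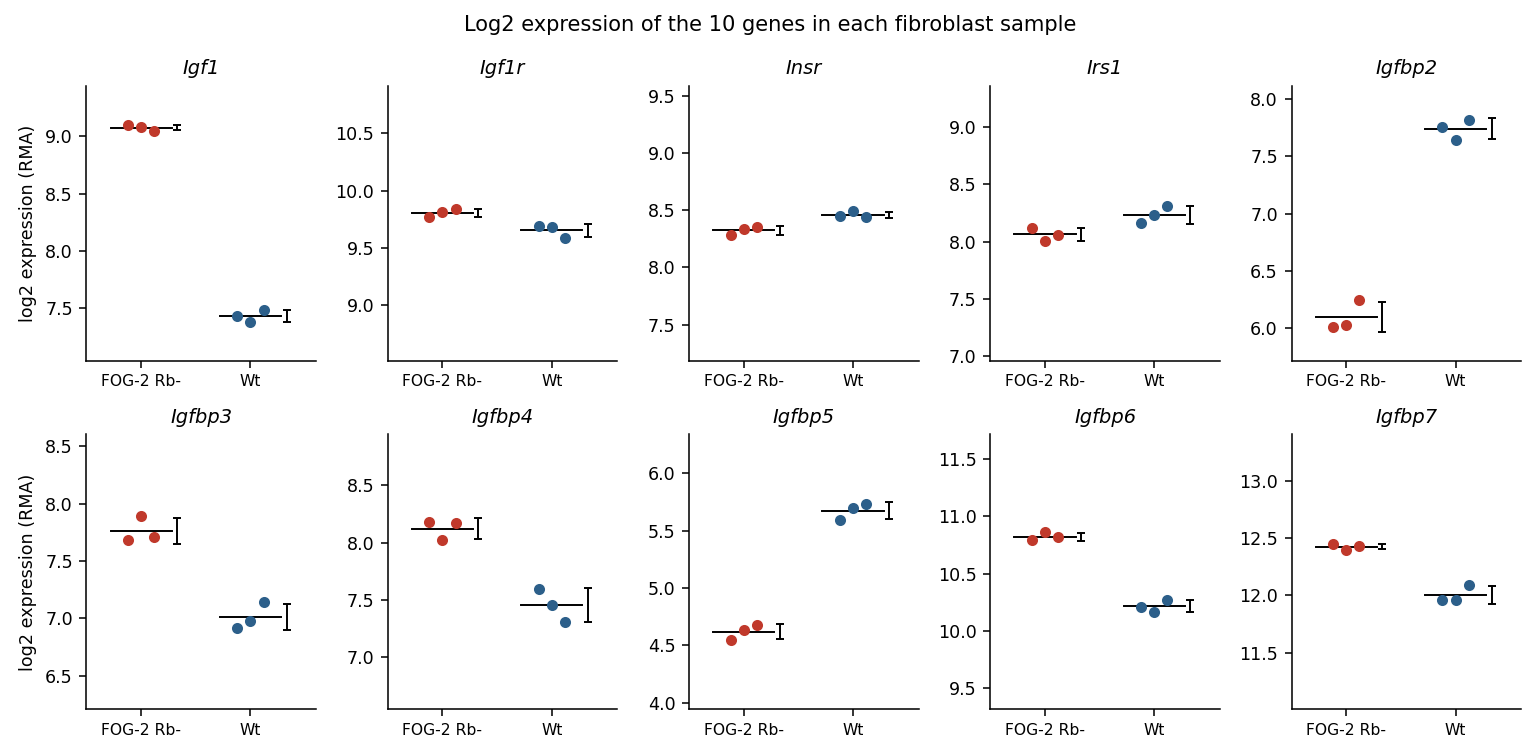
Log2 expression (vertical axis, RMA values) of each of the 10 genes in the 3 FOG-2 Rb- samples (red, left) and the 3 wild type samples (blue, right), with the mean as a line and the SD as a bar; every panel spans the same number of log2 units. Igf1, Igfbp3, Igfbp4, Igfbp6 and Igfbp7 lie higher in FOG-2 Rb- cells, Igfbp2 and Igfbp5 lie lower, and the panels of Igf1r, Insr and Irs1 are nearly level.

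Tested with limma over all 23748 rows with Benjamini-Hochberg adjustment, 7 of the 10 genes were past an adjusted p of 0.05, 5 higher and 2 lower in FOG-2 Rb- cells, while 18% of all rows were past it (9.44% higher and 8.59% lower). The same 7 genes passed in each of the 12 alternative settings. All 10 genes had FOG-2 Rb- samples entirely above or entirely below the wild type samples, as had 35.6% of all rows, and 3 of the 10 differed by 2-fold or more, as did 1.24% of all rows. The median absolute log2 fold change was 0.63 over the 10 genes and 0.10 over all rows. Because the genes were chosen with this contrast known, nothing is read from these counts. In the authors' deposited table, the ratio of mutant over wild type was 3.13 for Igf1, 0.320 for Igfbp2 and 0.481 for Igfbp5.

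**Figure D2:**
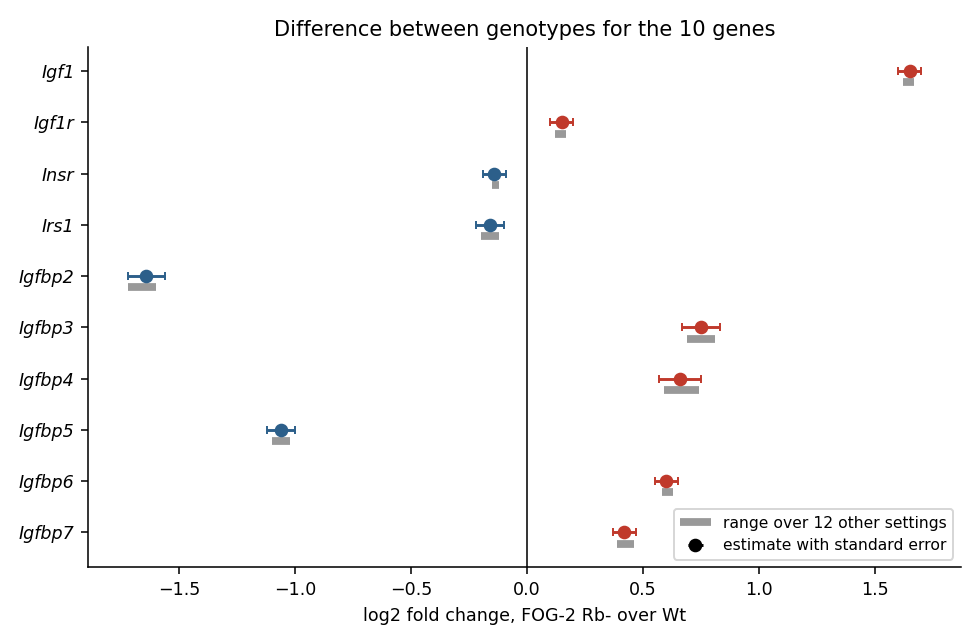
Log2 fold change of FOG-2 Rb- over wild type (horizontal axis) for the 10 genes, as the estimate with its standard error (points and bars; red higher, blue lower in FOG-2 Rb-) and, in grey, the range over the 12 alternative settings. Igf1 at 1.65 and Igfbp2 at -1.64 mark the ends, and no grey range crosses 0. Only the settings that changed the normalization or the centring could have turned a sign.

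Some of the binding protein genes, themselves chosen with their values known, are neighbours on their chromosomes. In the order of protein-coding genes in RefSeq (assembly GRCm38.p6), Igfbp2 and Igfbp5 are next to each other on chromosome 1, and both were lower in FOG-2 Rb- cells. The genes that flank this pair differed little: Rpl37a, a ribosomal protein gene, had a log2 fold change of -0.12, and Tnp1, a sperm nuclear protein gene, of -0.07. On chromosome 11 Igfbp3, at 0.75, is next to Igfbp1, which had -0.15, with overlapping genotypes and a 95% interval of -0.47 to 0.17. Adcy1, on the other side of Igfbp1, averaged 7.28 in FOG-2 Rb- cells and 6.24 in wild type cells, a log2 fold change of 1.04. Genes of the tensins, adaptor proteins that link integrins to the actin cytoskeleton, lie within 2 genes of several binding protein genes. Tns1, 2 genes from Igfbp5 and beyond Tnp1, averaged 10.34 in FOG-2 Rb- cells and 9.20 in wild type cells, a log2 fold change of 1.14 and opposite in sign to that of Igfbp2 and Igfbp5. Tns3, next to Igfbp3, had 0.39, Tns2, 2 genes from Igfbp6, had 0.28, and Tns4, next to Igfbp4, had -0.13. Near the other genes, Adgrl3, next to Igfbp7, had -0.73, 2610044O15Rik8, 2 genes from Insr, had -0.41 and Dock10, 2 genes from Irs1, had 0.49. The neighbours were chosen for their position after the values were seen, and their differences were not tested here.

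For the 3 genes that differed by 2-fold or more, the 3 named rows of most similar pattern were those with the smallest root mean square difference of centred log2 values over the 6 samples. For Igf1 these were Cdh3, a cadherin gene (0.047 log2 units), Niban1 (0.050) and Ptk2b, a focal adhesion family kinase gene (0.065). Cdh3 averaged 9.29 in FOG-2 Rb- cells and 7.70 in wild type cells. For Igfbp2 they were Nr1h5, a nuclear receptor gene (0.097), the T-box factor gene Tbx3 (0.106) and the proteoglycan gene Dcn (0.106), and for Igfbp5 A830082K12Rik (0.040), E030011O05Rik (0.046) and Zfp703 (0.049). All of these rows share the same 6 samples and the contrast of the genotypes.

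The other genes of the pathway were taken from lists drawn up by role, 76 genes in all, of which 66 had a named row. These lists too were chosen with earlier results of these data known. Their counts and adjusted p-values are therefore a description and not an independent test. Of these 66, 7 rose, 10 fell and 49 did not pass the limma test (25.8% past the threshold, against 18% of all rows), with a median log2 fold change of 0.01 against -0.02 over all rows. Ligands, receptors, binding proteins and binding protein proteases beyond the 10 genes held 6 of 13 genes past the threshold, and signalling genes downstream of the receptors 9 of 46. Of the 17 calls, 9 held in all 12 alternative settings, 3 higher (Adam12, Pappa2 and Socs3) and 6 lower (Pappa, Stc1, Igf2r, Pik3cb, Htra1 and H19), and 8 were lost in some. These 8 all differed by under 1.5-fold, as did Pappa2, Socs3 and H19, which held. Each of the 8 was lost with the replicate number as a block, among other settings. The block leaves the fold changes as they are and leaves fewer degrees of freedom for the spread. The count of 17 became 10 without FOG-2 Rb- replicate 1 or 2, 9 without replicate 3, 11 without wild type replicate 2 and 10 without wild type replicate 3.

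Of the 6 proteases that cut IGF binding proteins and their inhibitors, 5 passed the limma test (83.3%, against 18% of all rows). Pappa and Adam12 were the 2 of 66 pathway genes that differed by 2-fold or more, as did 1.24% of all rows. Pappa encodes pappalysin, the protease known for cutting IGFBP4 when IGF is bound. It measured 6.05, 6.26 and 6.19 in FOG-2 Rb- cells, against 7.89, 8.07 and 8.04 in wild type cells, so that all FOG-2 Rb- samples lay at least 1.63 log2 units below all wild type samples. It fell 3.57-fold (log2 fold change -1.84, SE 0.08, limma adjusted p = 2.22e-05). Stc1 encodes stanniocalcin, an inhibitor of pappalysin. Its values were 6.66, 6.75 and 6.64 in FOG-2 Rb- cells and 7.55, 7.71 and 7.74 in wild type cells, a fall of 1.97-fold (log2 fold change -0.98, SE 0.07, limma adjusted p = 0.000158). Stc2, the gene of the related inhibitor, had a log2 fold change of -0.19 that did not pass (95% interval -0.32 to -0.06, limma adjusted p = 0.0515).

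Pappa2, which encodes a relative of pappalysin known for cutting IGFBP3 and IGFBP5, measured 6.30, 6.33 and 6.20 in FOG-2 Rb- cells and 5.79, 5.78 and 5.55 in wild type cells. It rose 1.49-fold (log2 fold change 0.57, SE 0.08, limma adjusted p = 0.00333). Adam12, a membrane metalloprotease gene whose human product cuts IGFBP3 and IGFBP5, measured 9.36, 9.37 and 9.43 in FOG-2 Rb- cells and 8.21, 8.23 and 8.12 in wild type cells. It rose 2.29-fold (log2 fold change 1.20, SE 0.05, limma adjusted p = 2.56e-05), with no overlap between the genotypes. Htra1, a secreted serine protease gene whose product cuts IGFBP5, measured 7.66, 7.51 and 7.68 in FOG-2 Rb- cells and 8.29, 8.29 and 8.44 in wild type cells, and fell 1.65-fold (limma adjusted p = 0.000713). The list of 6 proteases and inhibitors thus held 2 rises, 3 falls and 1 gene that did not pass, and it did not move in 1 direction.

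**Figure D3:**
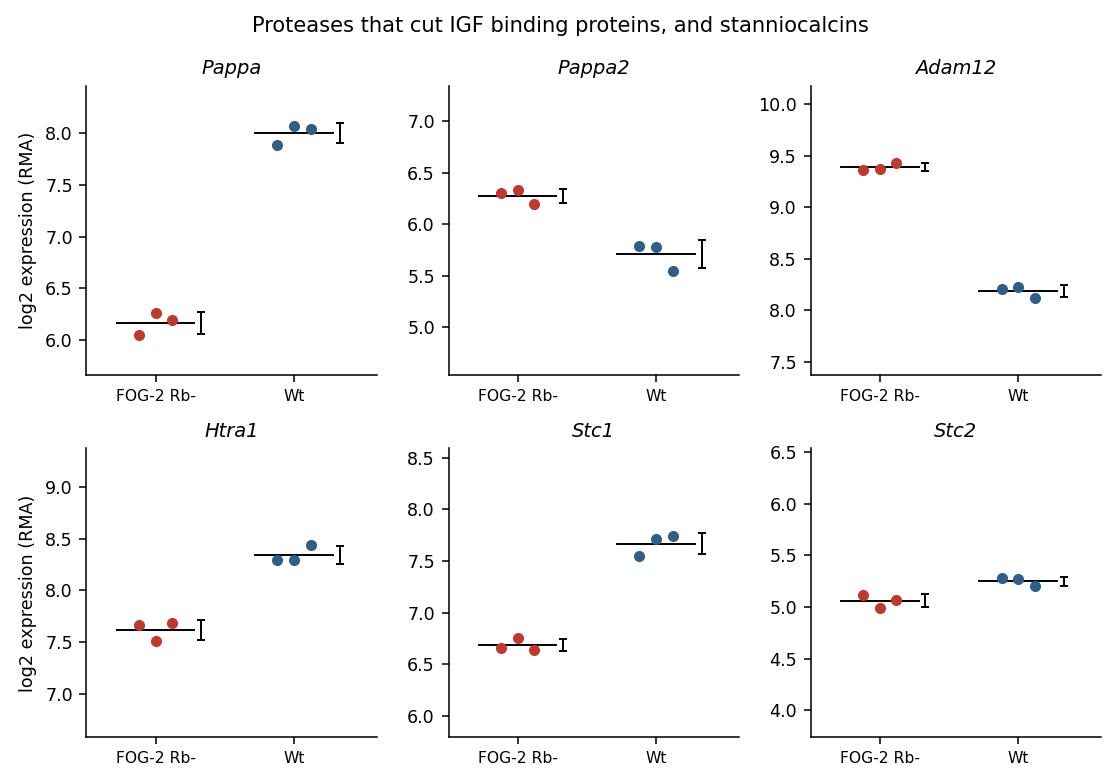
Log2 expression (vertical axis, RMA values) of 4 protease genes and 2 stanniocalcin genes in the 3 FOG-2 Rb- samples (red, left) and the 3 wild type samples (blue, right), with the mean as a line and the SD as a bar; every panel spans the same number of log2 units. Pappa lies at 6.05 to 6.26 in FOG-2 Rb- cells and at 7.89 to 8.07 in wild type cells, and Adam12 shows the opposite order.

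Igf2r, which encodes the receptor that removes IGF2 from the cell surface and carries lysosomal enzymes, fell. It measured 9.11, 9.08 and 8.99 in FOG-2 Rb- cells, against 9.98, 9.96 and 9.90 in wild type cells, with no overlap. The fall was 1.85-fold (log2 fold change -0.89, SE 0.05, limma adjusted p = 9e-05). Igf2 itself, the ligand gene most active in the embryo, measured 6.76, 6.93 and 6.87 in FOG-2 Rb- cells and 6.98, 6.60 and 6.68 in wild type cells. The genotypes overlapped, and its log2 fold change of 0.10 had a 95% interval of -0.14 to 0.35 (limma adjusted p = 0.575). H19, the imprinted noncoding RNA gene beside Igf2, measured 7.29, 7.20 and 7.27 in FOG-2 Rb- cells and 7.70, 7.73 and 7.86 in wild type cells. It fell 1.42-fold (log2 fold change -0.51, limma adjusted p = 0.00153).

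Genes that act on Igf2 mRNA differed little. Igf2bp1, which encodes a protein that binds this mRNA, fell 1.15-fold (log2 fold change -0.20, limma adjusted p = 0.0189), a call lost without FOG-2 Rb- replicate 1, 2 or 3 or wild type replicate 2 or 3. Igf2bp3 had a log2 fold change of 0.01 (limma adjusted p = 0.904). The insulin gene Ins2 (0.09), the insulin receptor-related gene Insrr (-0.05) and the binding protein-like gene Igfbpl1 (0.10) did not pass, and all 3 were among the lowest 30% of rows. Igfbp1, the classical binding protein gene outside the 10, had -0.15 (95% interval -0.47 to 0.17), and Igfals, which encodes the acid labile subunit of the serum complex, had -0.02.

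Of the 4 genes of the growth hormone receptor arm, which drives Igf1 transcription in the liver, 0 passed, against 18% of all rows. With so few genes nothing is read from this count. Ghr measured 9.95, 9.87 and 9.89 in FOG-2 Rb- cells and 9.83, 9.88 and 9.89 in wild type cells, with a log2 fold change of 0.04 (95% interval -0.07 to 0.15, limma adjusted p = 0.641). The kinase gene Jak2 had a log2 fold change of -0.12 and passed only with a trended and robust variance prior (limma adjusted p = 0.0492), and the transcription factor genes Stat5a and Stat5b had 0.13 and 0.17.

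Downstream of the receptors 9 of 46 genes passed (19.6%), near the share of all rows (18%). Pik3cb, which encodes a catalytic subunit of PI3K, had the largest difference there. It measured 8.30, 8.13 and 8.30 in FOG-2 Rb- cells and 9.10, 9.06 and 8.98 in wild type cells, and fell 1.75-fold (log2 fold change -0.81, SE 0.07, limma adjusted p = 0.00033). Foxo1, a transcription factor gene whose product AKT restrains, fell 1.20-fold (limma adjusted p = 0.0304), a call lost when any 1 FOG-2 Rb- replicate was left out or without wild type replicate 1 or 3. The PI3K, AKT and FoxO list as a whole held 2 falls and 13 genes that did not pass (13.3% past the threshold).

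Of 7 receptor phosphatases and feedback inhibitors, 3 rose, 1 fell and 3 did not pass (57.1% past the threshold, against 18% of all rows). Socs3, which encodes a cytokine-induced inhibitor of receptor signalling, measured 7.90, 7.98 and 7.97 in FOG-2 Rb- cells and 7.50, 7.18 and 7.50 in wild type cells. It rose 1.47-fold (log2 fold change 0.56, SE 0.09, limma adjusted p = 0.00677). The AKT-binding pseudokinase gene Trib3 rose 1.35-fold and the lipid phosphatase gene Inppl1 1.15-fold, while Ptpn1, which encodes a phosphatase of the insulin receptor, fell 1.16-fold. The limma adjusted p was 0.0282 for Trib3, 0.045 for Inppl1 and 0.0264 for Ptpn1. The call of Inppl1 was lost without any 1 sample, that of Trib3 without FOG-2 Rb- replicate 1 or 3 or wild type replicate 2 or 3, and that of Ptpn1 without FOG-2 Rb- replicate 2 or 3 or wild type replicate 2 or 3.

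Of 11 substrates and adaptors, the adaptor gene Gab1 rose 1.13-fold (limma adjusted p = 0.0409) and Grb14, which encodes an inhibitor of the insulin receptor, fell 1.16-fold (limma adjusted p = 0.0454). The call of Gab1 was lost without any 1 sample, and that of Grb14 without any sample other than wild type replicate 1. Of the 5 Ras and MAP kinase genes with a row, the kinase gene Map2k1 rose 1.23-fold (limma adjusted p = 0.0216), a call lost when any 1 FOG-2 Rb- replicate was left out. None of the 8 TSC and mTOR genes passed. Rictor, the one with the smallest p, had a log2 fold change of 0.15 (limma adjusted p = 0.0657). It passed in 3 of the 12 alternative settings. The share past the threshold was 18.2% of the substrates and adaptors and 20.0% of the Ras and MAP kinase genes, against 18% of all rows.

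**Figure D4:**
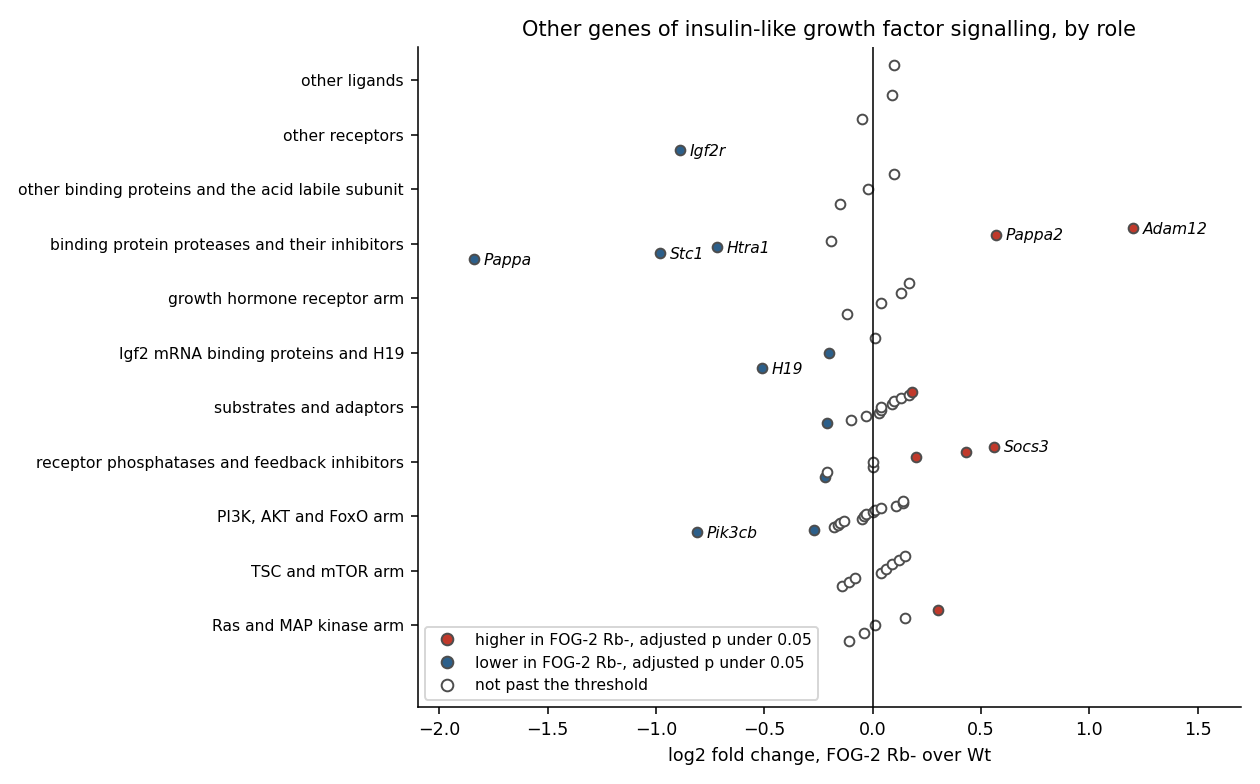
Log2 fold change of FOG-2 Rb- over wild type (horizontal axis) for the 66 pathway genes outside the 10, grouped by role down the page; filled points passed the limma test (red higher, blue lower), open points did not, and passed genes with a difference of at least 0.5 log2 units are named. The list of proteases and their inhibitors spreads from -1.84 to 1.20, while the mTOR list has no filled point.

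Other facts of the samples bear on how these values are read. Zfpm2, the gene of FOG-2, measured 9.40 ± 0.01 in FOG-2 Rb- cells and 9.68 ± 0.07 in wild type cells (SD, n = 3 each), and it fell (log2 fold change -0.29, limma adjusted p = 0.00913). A changed binding site need not alter the level of the gene, so this does not check the labels. Of 9 fibroblast marker genes with a row, 3 rose and 2 fell. The log2 fold changes were 0.38 for Col1a1, 0.36 for Col3a1 and 0.16 for Sparc, against -0.90 for Pdgfra and -0.78 for Thy1. Their summed level (antilog of the log2 values) was 42600 to 43100 in FOG-2 Rb- samples and 39800 to 40800 in wild type samples. Col1a1 makes up the largest part of that difference, and Pdgfra goes against it. Of 9 mesothelial markers, 6 rose and 1, Msln, fell (log2 fold change -1.23), and their sum was 1540 to 1640 in FOG-2 Rb- samples and 658 to 719 in wild type samples. Upk1b (log2 fold change 3.27) and Krt18 (2.24) make up most of that difference in the sum. Of 5 chondrocyte markers, 0 rose and 2, Sox9 and Acan, fell (sum 596 to 610 in FOG-2 Rb- and 1170 to 1290 in wild type). Sox9 (log2 fold change -1.38) makes up nearly all of that difference, and Col2a1, Comp and Matn1 did not pass. Of 5 leukocyte markers, Cd68 and Csf1r rose (sum 343 to 350 in FOG-2 Rb- and 233 to 248 in wild type). Cd68 (log2 fold change 0.69) makes up nearly all of that difference. Ptprc, Adgre1 and Cd3e did not pass and were among the lowest 30% of rows. None of the endothelial, epithelial or hepatoblast markers passed. Of 5 skeletal myogenic markers, Des rose (log2 fold change 0.40), and of 4 neural markers with a row, Snap25 fell (-0.47). Over all rows 18% were past the threshold, 9.44% higher and 8.59% lower. RMA values are never 0, so no marker can be called absent. Xist measured 11.69 to 11.75 in all 6 samples, and the Y-linked genes Uty, Kdm5d and Eif2s3y measured 3.78 or less. The part of the mesothelial, chondrocyte and leukocyte markers in the differences of Igf1, the binding proteins and the proteases was not tested.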

How the data were processed

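Total RNA (270 ng per sample) of 3 FOG-2 Rb- and 3 wild type fibroblast samples was labelled for whole-transcript arrays, per the labels' protocols. The authors deposited log2 expression values in 23748 rows and 6 columns, per the file headers, and RMA and Partek are named in the submitters' processing notes; their versions, the probe definition and the build were not given in the sources used here. The authors also deposited an unadjusted p-value per gene, the mutant to wild type ratio and a fold change score with a sign. On the log2 scale this ratio matched mutant minus wild type means of the log2 table to within 7.18e-06, which fixes the direction. Array background and scan batches were not examined, as no scanner file was used. The number of arrays limits the precision.

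The platform annotation gave 1 symbol for 23111 rows and none for 637. Differences were fitted by genotype alone with limma 3.58.1 (R 4.3.3; lmFit, then eBayes; two-sided), with Benjamini-Hochberg adjustment over the whole table and calls at 0.05. Adjusted p-values come from this fit unless another setting is named. Its code was run on simulated data with planted differences, which cannot show whether samples of a genotype are technical repeats. Errors are SDs or limma's standard errors. The members and lists were chosen with earlier results of these data known. Named are all 10 genes, Zfpm2, the small pathway lists in full, in longer lists up to 5 genes past the threshold or else the gene with the smallest p, and the 3 rows most like each gene that differed by at least 1 log2 unit. Markers were counted with the same fit, and gene neighbours are given as a description. Pathway genes without a matched symbol (10 of 76) were not analysed here. Alternatives left out each sample, used the replicate number as a block, or changed the prior on the variance, the test (an ordinary ANOVA), the normalization and the centring, or left out the lowest 30% of rows.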

Additional observations from a re-analysis of the deposited data

How the results depend on the processing

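Each of the 10 genes kept its direction in all 12 alternatives, most of which could not have turned it. The block, the variance prior, the ordinary ANOVA and the removal of low rows leave the fold change as it is. Leaving out 1 sample cannot turn a sign where the genotypes do not overlap. Only the normalization and the centring could have done so. Igf1 ranged from 1.62 to 1.67 on the log2 scale and Igfbp2 from -1.72 to -1.60. Igfbp5 ranged from -1.10 to -1.02 and Irs1 from -0.20 to -0.12. The count of the 10 past the threshold was 7 to 9; Igf1r passed in 2 of the 12, Insr in 3 and Irs1 in 0. Over all rows 4281 were past it, 2805 to 3446 with 1 sample left out (2805 without FOG-2 Rb- replicate 3) and 3181 with the replicate block. Of the 66 other pathway genes 17 were past it, 9 to 15 with 1 sample left out and 9 with the replicate block (3 higher, 6 lower). The count was 24 with a trended and robust variance prior. With 1 sample left out fewer samples enter the fit, and the block leaves fewer degrees of freedom. Same-numbered samples of the genotypes had correlations of deviations from their group means of 0.03, 0.02 and 0.00, so the numbers were not taken to pair them. Among genes far from the threshold, Igfals (-0.06 to 0.00 with 1 sample left out) turned to 0.00 without wild type replicate 1 and 0.01 after quantile normalization anew, and Igf2bp3 (up to 0.03 with 1 sample left out) to -0.00 without wild type replicate 3; the cause was not tested. Of the 12 alternatives, Map2k1 kept its call in 7, Ptpn1 and Trib3 in 6, Foxo1 and Igf2bp1 in 5, Gab1 and Grb14 in 4 and Inppl1 in 3; with all samples kept, all 8 were lost under the replicate block, and some also with centred arrays, the ordinary ANOVA or quantile normalization. Stc2 passed when the lowest 30% of rows were left out (adjusted p = 0.03). With 3 arrays per genotype and no scanner files, small differences and those of rows near the background are the least certain.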
